A study of Mus musculus with 16 samples.

Results

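The genes described here are Thbs1, which encodes thrombospondin 1 and is the gene targeted by the knockout, and 8 genes linked to platelets: Pf4, Clec1b, Pik3r5, Gngt2, Cd63, Timp1, Sparc and Plek. They were taken by name from the rows of both deposited tables and are 9 of the 5205 genes with a row in either table. All 9 have a row in the TSP1F/F table, which holds 2558 genes. In the TSP1ΔPf4 table, with 3399 genes, Plek and Sparc have a row and the other 7 (Thbs1, Pf4, Clec1b, Pik3r5, Gngt2, Cd63 and Timp1) have none. The largest unadjusted diet p-value in either table is 0.0499, so each table appears to hold only genes selected for its own diet contrast. A gene without a row therefore has no value here, neither as low nor as unchanged.

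RNA was measured from whole livers of 16 male C57BL6 mice, with 4 mice in each of 4 groups. TSP1F/F mice carry floxed Thbs1 and served as littermate controls. TSP1ΔPf4 mice carry the same floxed gene together with a Pf4-Cre transgene, which drives deletion in megakaryocytes and platelets and is known to act in some other blood cells as well. Mice of each genotype were fed for 32 weeks with a low-fat diet (LF) or with the AMLN diet, which is rich in fat, fructose and cholesterol and is used to produce steatohepatitis. The labels give no ages. Library totals ran from 18135112 to 26649603 in the TSP1F/F LF group and from 18362810 to 39753019 in the TSP1F/F AMLN group. In TSP1ΔPf4 mice they ran from 17127965 to 20700888 on LF and from 23221536 to 31363462 on AMLN. Every TSP1ΔPf4 library on AMLN was deeper than every one on LF, while the TSP1F/F ranges overlapped. Values are given as CPM, the count of a gene scaled to a common library total, unless FPKM, which also divides by gene length, is named. A gene is called when its adjusted p is under 0.05 and its absolute log2 fold change over 0.25.

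Platelets carry alpha granules, whose proteins are released when the cell is activated. Thrombospondin 1, platelet factor 4 (Pf4), SPARC and TIMP1 are among the proteins found in these granules, and CD63 is a tetraspanin of granule and lysosome membranes that reaches the surface on release. Clec1b encodes the podoplanin receptor CLEC-2, which starts platelet activation, while Pik3r5, Gngt2 and Plek encode a regulatory subunit of phosphoinositide 3-kinase gamma, a G protein gamma subunit and pleckstrin, a major substrate of protein kinase C in platelets. Most of these genes are not restricted to platelets. Kupffer cells, the resident macrophages of the liver, express Clec1b, leukocytes express Plek and Pik3r5, macrophages express Cd63, and stellate cells express Sparc and Timp1.

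The label was checked against platelet and megakaryocyte markers. Of 22 such genes, 4 have a row in the TSP1F/F table (Clec1b and Pf4, themselves among the 9 genes, with Nbeal2 and Rab27b), and the defining markers Itga2b, Gp1ba, Gp9, Ppbp and Tubb1 have none. Summed over the 4 listed genes, these markers stood at 9.45, 9.33, 6.34 and 7.81 CPM in the LF mice and at 20.7, 18.6, 19.0 and 25.5 CPM in the AMLN mice, with Clec1b the most abundant. By edgeR 0 of the 4 were called for the diet, with 4 at an unadjusted p under 0.05 and 1 called by DESeq2. The rows appear selected on diet, and 1680 of all 2096 genes tested in TSP1F/F mice had an unadjusted p under 0.05. In TSP1ΔPf4 mice it was 2649 of 3089. DESeq2 called 339 genes higher and 508 lower of 2558 in TSP1F/F mice, and 1115 higher and 388 lower of 3399 in TSP1ΔPf4 mice. These shares stand beside every such diet count of a list below. In the TSP1ΔPf4 table the only listed marker was Mmrn1, at a mean of 0.565 CPM (SD 0.725) on LF and 0.0544 CPM (SD 0.0563) on AMLN, too low to be tested. The label therefore rests on what the genes are known for, since the defining markers of platelets could not be read.

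Promoters are shown for Pf4 and Clec1b, the members best known from platelets, and for Timp1, which had no count on LF, from 250 bases before to 50 bases after the start that RefSeq gives. The RefSeq promoters used here, on build GRCm38.p6, matched 7 of the 9 members, all but Thbs1 and Gngt2. The letters searched on both strands were AGATAA (bound by GATA factors), GGAAGT (Ets factors) and TGANTCA (AP-1). Capitals mark these matches, which are descriptions of sequence and not binding sites. The Pf4 promoter lies at chr5:90772185-90772484 on the forward strand, that of Clec1b at chr6:129397047-129397346 on the forward strand and that of Timp1 at chrX:20869916-20870215 on the forward strand.
Pf4: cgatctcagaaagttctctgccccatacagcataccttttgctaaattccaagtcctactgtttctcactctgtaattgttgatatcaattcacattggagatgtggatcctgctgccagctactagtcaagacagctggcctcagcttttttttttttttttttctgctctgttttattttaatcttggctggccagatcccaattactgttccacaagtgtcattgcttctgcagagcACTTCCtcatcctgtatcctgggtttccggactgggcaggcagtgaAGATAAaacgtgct
Clec1b: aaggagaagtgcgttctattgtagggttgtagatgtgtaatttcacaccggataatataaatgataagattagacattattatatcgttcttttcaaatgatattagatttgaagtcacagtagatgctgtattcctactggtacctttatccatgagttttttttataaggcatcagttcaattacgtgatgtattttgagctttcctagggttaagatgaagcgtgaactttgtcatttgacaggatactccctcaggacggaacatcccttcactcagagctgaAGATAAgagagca
Timp1: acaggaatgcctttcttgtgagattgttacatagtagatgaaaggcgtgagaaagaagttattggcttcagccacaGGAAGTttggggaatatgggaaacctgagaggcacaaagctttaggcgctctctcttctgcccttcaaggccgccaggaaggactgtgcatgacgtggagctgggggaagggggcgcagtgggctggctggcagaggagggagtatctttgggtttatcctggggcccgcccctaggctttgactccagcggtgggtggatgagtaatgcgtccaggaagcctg
AGATAA began 36 bases after the start in Pf4 and 37 bases after it in Clec1b, and GGAAGT in either orientation was found in Pf4, Cd63 and Timp1. Among 32817 promoters of 300 bases, 11.2% held AGATAA, 23.8% held GGAAGT and 7.81% held TGANTCA. The letters TGANTCA were in none of the 7 member promoters, and the windows of Plek, Sparc and Pik3r5 held none of the 3 sets of letters. The RefSeq start lies inside the gene as deposited for Plek (43663 bases), Cd63 (8356 bases) and Sparc (3103 bases), so for these the window is that of an internal start and the deposited start was not searched.

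Thbs1 (ENSMUSG00000040152, chromosome 2 of mm10 from 118111876 to 118127133, forward strand) was listed in TSP1F/F mice only. Its level was 0.313, 1.82, 0.717 and 0.375 CPM in LF replicates 1 to 4 and 1.94, 3.23, 13.3 and 10.1 CPM in AMLN replicates 1 to 4. AMLN replicates 3 and 4 were far above replicates 1 and 2, and the lowest AMLN mouse was just above the highest LF mouse. The mean was 8.86 times higher on AMLN, with a log2 fold change of 3.15 (SE 0.78) that was not called (adjusted p = 0.14, quasi-likelihood test of edgeR, Benjamini-Hochberg adjusted). That log2 fold change ran from 2.66 to 3.93 in fits with a mouse left out. DESeq2 did call Thbs1 (log2 fold change 2.74, adjusted p = 0.00802, Wald test of DESeq2, Benjamini-Hochberg adjusted), so the call depends on the tool. Gm29233 overlaps Thbs1 on the opposite strand. With no TSP1ΔPf4 row, Thbs1 could not be used to check the genotype labels. Fewer cells of a type and less RNA per cell cannot be told apart in whole liver.

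Pf4 (ENSMUSG00000029373, chromosome 5 from 90772435 to 90773383, forward strand), a chemokine stored in alpha granules, was near the detection limit on LF. Its counts were 0, 16, 10 and 3 in the LF mice and 73, 102, 93 and 78 in the AMLN mice, or 0, 0.858, 0.551 and 0.113 CPM and 2.21, 4.58, 2.34 and 4.25 CPM. Every AMLN mouse was above every LF mouse, and AMLN replicates 2 and 4 were the higher pair. The log2 fold change of 3.14 (SE 0.94) was not called (adjusted p = 0.232, quasi-likelihood test of edgeR, Benjamini-Hochberg adjusted), while DESeq2 called it (adjusted p = 0.0295, Wald test of DESeq2, Benjamini-Hochberg adjusted). In edgeR fits with a mouse left out it ran from 2.73 to 3.92.

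Clec1b (ENSMUSG00000030159, chromosome 6 from 129397297 to 129409335, forward strand) stood at 4.17, 5.31, 3.20 and 4.35 CPM on LF and at 9.41, 7.50, 8.05 and 13.1 CPM on AMLN. The groups did not overlap, and AMLN replicate 4 was highest. The log2 fold change of 1.16 (SE 0.34) was not called (adjusted p = 0.229, quasi-likelihood test of edgeR, Benjamini-Hochberg adjusted). Clec9a overlaps Clec1b on the same strand and also has a row, so reads of the overlap could fall to either gene. Kupffer cell markers were read beside Clec1b, with 8 of 12 listed in TSP1F/F mice, Clec1b among them. Their summed level was 71.7, 146, 257 and 93.1 CPM on LF and 358, 371, 407 and 840 CPM on AMLN, with Clec4f the most abundant on LF and Cd5l on AMLN. By their means 6 of the 8 were higher on AMLN and 2, Marco and Cd163, were lower. AMLN replicate 4 was highest for both Clec1b and this sum, and Marco and Cd163 were at 0 counts in it. By edgeR 0 of the 8 were called, with 8 at an unadjusted p under 0.05 and 5 called by DESeq2. In TSP1ΔPf4 mice 5 have a row, and 4 had a higher mean on AMLN. Cd163 was lower, at a mean of 3.54 CPM on LF and 1.01 CPM on AMLN. Hmox1 and Vsig4, both higher on AMLN, were the 2 called by edgeR, and DESeq2 called all 5, Cd163 among them. Timd4 and Folr2 have no row, and the part of Kupffer cells in the Clec1b result was not tested.

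Cd63 and Plek rose on the AMLN diet in TSP1F/F mice, and Timp1 was detected on that diet alone. Cd63 (ENSMUSG00000025351, chromosome 10 from 128900989 to 128912822, forward strand) was at 2.82, 7.83, 13.3 and 4.65 CPM on LF and at 38.9, 34.6, 55.9 and 103.8 CPM on AMLN. AMLN replicate 4 was well above the other AMLN mice, all of which were above every LF mouse. Its log2 fold change was 3.03 (SE 0.52, adjusted p = 0.0435, quasi-likelihood test of edgeR, Benjamini-Hochberg adjusted). A processed copy, Cd63-ps, also has a row in the same table, so reads of Cd63 are uncertain where the copies match.

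Timp1 (ENSMUSG00000001131, chromosome X from 20870166 to 20874735, forward strand), an inhibitor of matrix metalloproteinases, had 0 counts in all 4 LF mice. In the AMLN mice it was at 2.69, 2.47, 5.11 and 4.36 CPM. It was detected in every AMLN mouse and in no LF mouse. Against a floor of 3 counts in each LF library, it was at least 24.6-fold higher on AMLN, and floors cover counting error only. Timp1 was called (adjusted p = 0.0206, quasi-likelihood test of edgeR, Benjamini-Hochberg adjusted), but it passed the filter on low counts only through the AMLN mice, so it had to differ to be tested at all. It was called without that filter as well (adjusted p = 0.0106, quasi-likelihood test of edgeR, Benjamini-Hochberg adjusted). Its row still appears selected on the diet contrast, so neither call is read as support beyond the counts themselves. Syn1 overlaps Timp1 on the opposite strand, and whether reads were counted by strand is not given in the sources used here.

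Plek (ENSMUSG00000020120, chromosome 11 from 16971206 to 17052381, reverse strand) was at 1.46, 1.18, 1.05 and 1.95 CPM on LF and at 6.78, 7.27, 14.2 and 16.9 CPM on AMLN. AMLN replicates 3 and 4 were the higher pair, as for Thbs1 and Timp1, and the groups did not overlap. Gm12014 and Cnrip1 overlap Plek on the opposite strand. Its log2 fold change was 2.99 (SE 0.44, adjusted p = 0.0214, quasi-likelihood test of edgeR, Benjamini-Hochberg adjusted).

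The remaining members were Sparc, Gngt2 and Pik3r5. Sparc (ENSMUSG00000018593, chromosome 11 from 55394500 to 55423183, reverse strand) was at 28.7, 52.1, 45.8 and 30.5 CPM on LF and 77.0, 69.4, 90.4 and 98.6 CPM on AMLN. Gngt2 (ENSMUSG00000038811, chromosome 11 from 95837216 to 95845734, forward strand) was at 2.24, 4.18, 8.99 and 1.28 CPM on LF and 11.3, 17.9, 11.1 and 25.3 CPM on AMLN. Pik3r5 (ENSMUSG00000020901, chromosome 11 from 68432121 to 68497849, forward strand) was at 0.626, 0.161, 0.221 and 0.263 CPM on LF and 2.42, 2.87, 3.60 and 2.99 CPM on AMLN. None of these groups overlapped. Their log2 fold changes were 1.09 (SE 0.27) for Sparc, 1.98 (SE 0.57) for Gngt2 and 3.21 (SE 0.64) for Pik3r5, and none was called (adjusted p = 0.132, 0.215 and 0.0684, quasi-likelihood test of edgeR, Benjamini-Hochberg adjusted). DESeq2 called Pik3r5 and not the other two. Abi3 overlaps Gngt2 on the opposite strand.

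**Figure D1:**
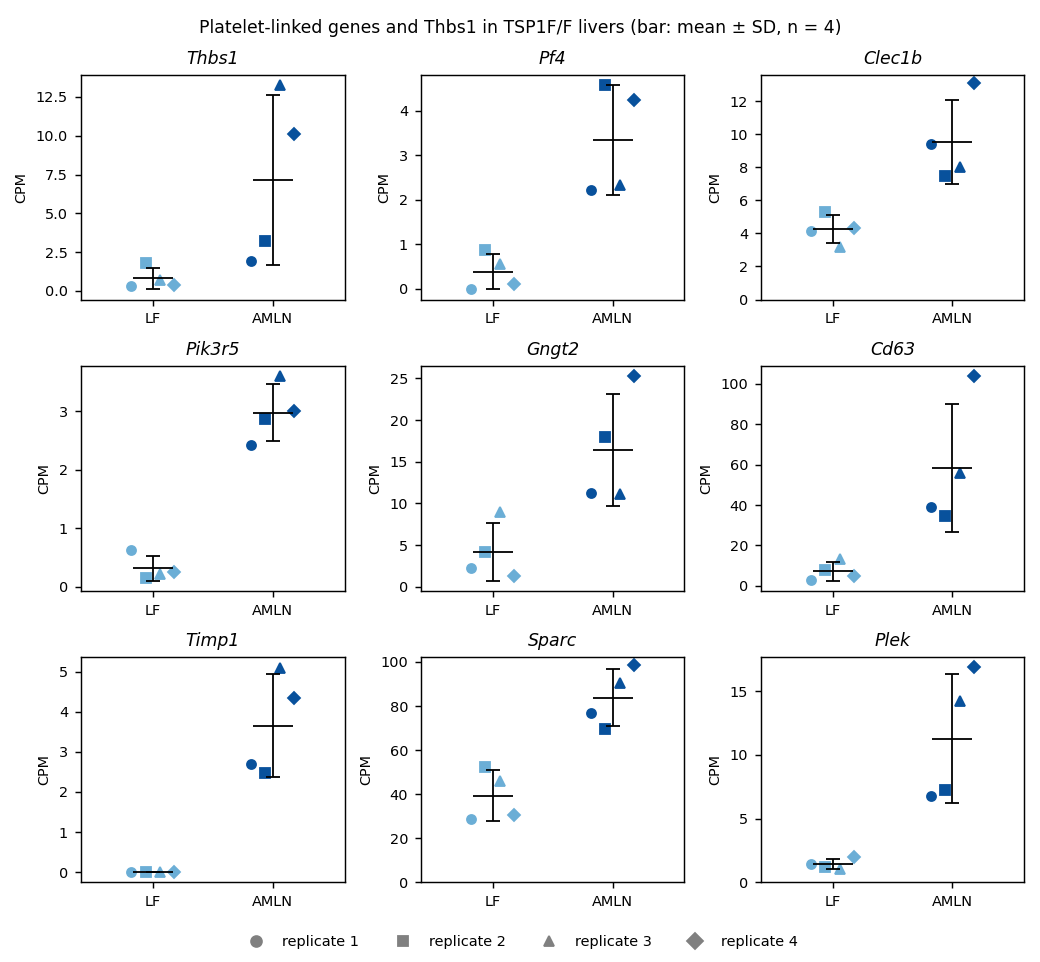
CPM (vertical axes) of the 9 genes in the 4 LF and 4 AMLN mice of the TSP1F/F genotype, 1 symbol shape for each replicate number, with bars for the mean and SD. In each panel the AMLN mice sit above the LF mice, and Thbs1, Pik3r5, Cd63, Timp1, Sparc and Plek are highest in AMLN replicates 3 and 4.

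In all, 3 of the 9 members were called as higher on AMLN in TSP1F/F mice, beside 2.39% of the 2096 genes tested. Of the 3, Timp1 passed the filter only through the AMLN mice and its call is not read, which leaves Cd63 and Plek. DESeq2 called 6 (Cd63, Timp1, Plek, Thbs1, Pf4 and Pik3r5), beside 339 genes called higher and 508 called lower of 2558. The AMLN mice did not overlap the LF mice for 9 of 9 members, beside 36.6% of the genes tested. The table was selected on this contrast and the members were chosen with earlier results known, so neither these counts nor the median below support a difference of the members from other genes. The median log2 fold change was 3.03 over the members, with Timp1 at its fitted value or at its bound, and 1.15 over all genes tested. That median of all genes was 0.97 with TMM and 1.02 with DESeq2. Relative to the first, Plek stood at 1.84 and Sparc at -0.05. The 3 calls depended on single mice, and 0 members were called with a block for replicate number. Cd63 was called in 1 of 8 fits with a mouse left out, the one without LF replicate 3, with log2 fold changes from 2.60 to 3.51. Plek was called in 3 of 8 such fits and lost without AMLN replicates 3 or 4 or LF replicates 1, 2 or 4, with log2 fold changes from 2.73 to 3.19. Timp1 was called in 4 of 8 and lost without AMLN replicates 1, 3 or 4 or LF replicate 4.

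**Figure D2:**
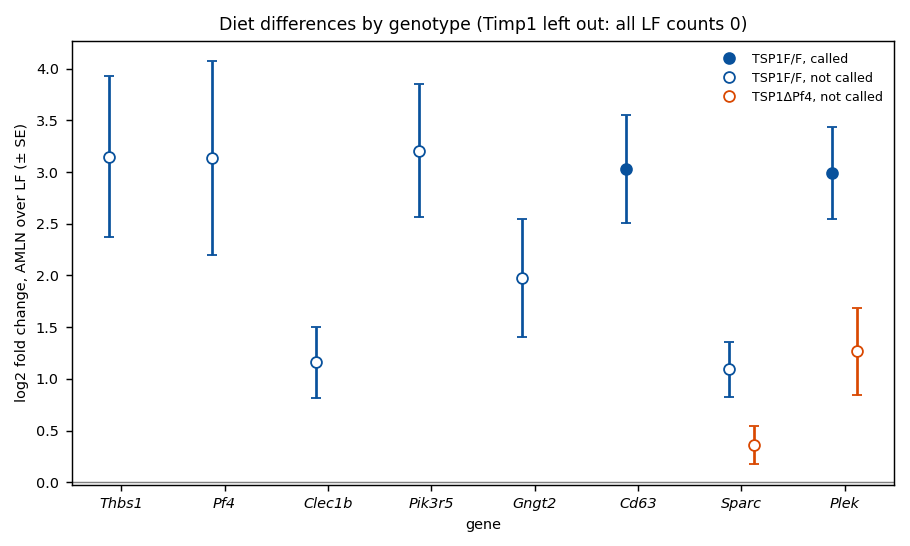
Log2 fold change of AMLN over LF with its standard error (vertical axis) for 8 genes (Timp1, with 0 counts on LF, is left out), with filled symbols for genes called and open symbols for genes not called. Cd63 and Plek are called in TSP1F/F mice, and Plek and Sparc in TSP1ΔPf4 mice are not called.

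Per gene length, Sparc was the most abundant member on both diets, at a mean of 10.4 FPKM (SD 3.04) on LF and 22.1 FPKM (SD 3.46) on AMLN. On AMLN it was followed by Cd63 at 15.8 (SD 8.61), Gngt2 at 8.74 (SD 3.57), Pf4 at 4.64 (SD 1.73) and Timp1 at 4.12 FPKM (SD 1.44). Plek was at 2.52 (SD 1.12), Clec1b at 1.87 (SD 0.496), Thbs1 at 1.18 (SD 0.897) and Pik3r5 at 0.535 FPKM (SD 0.0874). Every pair of neighbours in the AMLN order overlapped in range. On LF, Sparc did not overlap the next gene, Gngt2 at 2.22 FPKM (SD 1.83), and Timp1 was at 0. Pf4 stood above Clec1b on AMLN and below it on LF, where the ranges of the pair overlapped.

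Plek and Sparc could be followed in both genotypes. In TSP1ΔPf4 mice Plek was at 1.97, 0.580, 2.51 and 1.33 CPM on LF and at 2.94, 3.58, 4.27 and 4.52 CPM on AMLN. These groups did not overlap, and the AMLN mice were below all AMLN-fed TSP1F/F mice. Sparc was at 34.6, 42.0, 43.7 and 40.0 CPM on LF and at 53.5, 43.3, 58.2 and 50.4 CPM on AMLN. AMLN replicate 2 was below LF replicate 3, so the Sparc groups overlapped.

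The diet log2 fold change in TSP1ΔPf4 mice was 1.27 (SE 0.42) for Plek and 0.36 (SE 0.18) for Sparc. With 0 of 2 members called, beside 1.46% of 3089 genes tested as higher on AMLN, neither passed (adjusted p = 0.138 and 0.352, quasi-likelihood test of edgeR, Benjamini-Hochberg adjusted). Plek had an unadjusted p under 0.05, as did 2649 of the 3089 genes tested. Sparc did not, and ranked 3036 of 3089 by p. DESeq2 called both, beside 1115 genes called higher and 388 called lower of 3399. The median of all genes tested was -0.54 with library totals and -0.18 with TMM or DESeq2, and relative to the first Plek stood at 1.81 and Sparc at 0.90. Groups did not overlap for 1 of the 2 members, beside 20.4% of genes tested.

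On AMLN, Plek was lower in TSP1ΔPf4 than in TSP1F/F mice. Its log2 fold change was -1.56 (SE 0.38, adjusted p = 0.0231, quasi-likelihood test of edgeR, Benjamini-Hochberg adjusted), and 1 of 2 members was called as lower beside 8.46% of the 733 genes tested. Sparc had a log2 fold change of -0.71 (SE 0.25) and was not called (adjusted p = 0.0996, quasi-likelihood test of edgeR, Benjamini-Hochberg adjusted). Both genes had groups that did not overlap, beside 12.4% of genes tested. The median over all tested genes was itself -0.38 with library totals, against -0.10 under TMM and -0.04 under DESeq2, and relative to the first of these Plek stood at -1.18 and Sparc at -0.33. Sparc was at -0.42 with TMM and -0.35 with DESeq2. Plek kept its direction under each scaling but was not called with TMM (log2 fold change -1.25, adjusted p = 0.0526, quasi-likelihood test of edgeR, Benjamini-Hochberg adjusted). It was called in 3 of 8 fits with a mouse left out, with log2 fold changes from -1.74 to -1.30, and lost without TSP1F/F AMLN replicates 3 or 4 or TSP1ΔPf4 AMLN replicates 1, 2 or 3. The 2 tables were made separately, which limits levels set across them.

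On LF, neither gene was called between genotypes, where 0% of 640 genes tested were called as lower, 44 had an unadjusted p under 0.05 and DESeq2 called 0. The log2 fold changes were 0.17 (SE 0.55) for Plek and 0.03 (SE 0.26) for Sparc. The diet response itself differed by -1.73 on the log2 scale (SE 0.63) for Plek and by -0.74 (SE 0.33) for Sparc between TSP1ΔPf4 and TSP1F/F mice. Neither difference was called (adjusted p = 0.158 and 0.291, quasi-likelihood test of edgeR, Benjamini-Hochberg adjusted), beside 0.409% of 734 genes tested in either direction, and DESeq2 called 0 of the 2. Both had an unadjusted p under 0.05, as did 110 of the 734 genes tested. The median of all genes was -0.34 with library totals and 0.09 with TMM, and relative to the first Plek stood at -1.39 and Sparc at -0.40.

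**Figure D3:**
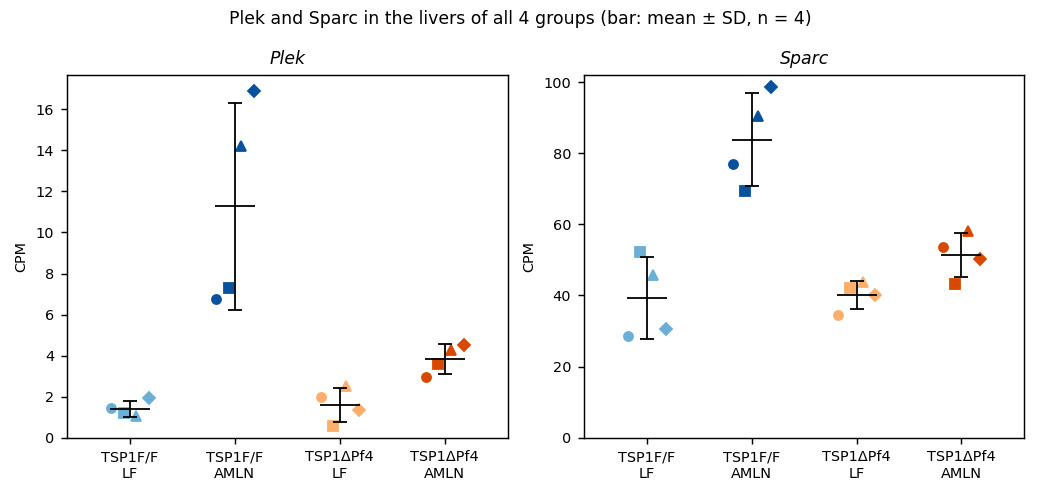
CPM (vertical axes) of Plek and Sparc in 4 mice of each of the 4 groups, 1 symbol shape for each replicate number, with bars for the mean and SD. Plek in AMLN-fed TSP1ΔPf4 mice sits below Plek in AMLN-fed TSP1F/F mice, and the LF groups overlap.

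Markers of macrophages and stellate cells were read beside Plek and Sparc. In TSP1F/F mice 5 of 13 listed markers of lipid-associated macrophages were called as higher on AMLN (Lpl, Trem2, Lgals3, Gpnmb and Itgax), and in TSP1ΔPf4 mice 3 of 12 (Lpl, Gpnmb and Mmp12). Gpnmb in both genotypes and Itgax in TSP1F/F mice passed the filter only through the AMLN mice, and were called without it as well. Their diet calls are not read for the list, which leaves Lpl, Trem2 and Lgals3 in TSP1F/F mice and Lpl and Mmp12 in TSP1ΔPf4 mice. DESeq2 called 9 of the 13 and 12 of the 12. Over all genes tested, edgeR called 2.39% of 2096 in TSP1F/F mice and 1.46% of 3089 in TSP1ΔPf4 mice as higher. DESeq2 called 339 higher and 508 lower of 2558, and 1115 higher and 388 lower of 3399. Of 15 markers of lipid-associated macrophages, cells that gather in the fatty liver, 12 have a row in both tables. Their summed level was 570, 686, 873 and 2752 CPM in AMLN-fed TSP1F/F mice and 223, 213, 259 and 306 CPM in AMLN-fed TSP1ΔPf4 mice. On LF it was 61.1, 132.5, 458 and 60.5 CPM in TSP1F/F mice and 70.8, 65.9, 139.6 and 84.0 CPM in TSP1ΔPf4 mice. Lyz2 was the most abundant, and 7 of the 12 (Lpl, Trem2, Gpnmb, Mmp12, Lgals3, Lyz2 and Clec7a) were called as lower in TSP1ΔPf4 mice on AMLN. Of the 733 genes tested, 8.46% were called as lower. The median log2 fold change of the 12 was -1.57, beside -0.38 over all genes tested. The AMLN-fed TSP1F/F mice were above the TSP1ΔPf4 mice for this sum, as for Plek. Kupffer cell markers with a row in both tables, 5 of 12, summed on AMLN to 251, 299 and 613 CPM in TSP1F/F replicates 1, 3 and 4, with replicate 2 just below replicate 1, while the TSP1ΔPf4 replicates 1 to 4 were at 156.8, 167, 151 and 189 CPM. Cd5l was the 1 of these 5 called as lower in TSP1ΔPf4 mice by edgeR, and DESeq2 called 0. Cd5l was also the most abundant, at a mean of 295 CPM in AMLN-fed TSP1F/F mice and 118 CPM in AMLN-fed TSP1ΔPf4 mice. The median log2 fold change of the 5 was -0.41, beside -0.38 over all genes tested. Cd163 was above 0.368 CPM in 2 AMLN-fed TSP1F/F mice and in 4 AMLN-fed TSP1ΔPf4 mice. The part of macrophages in the Plek result was not tested.

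Of 22 stellate cell and fibroblast markers, 6 have a row in both tables and were tested, Sparc itself among them, and Lrat has no row. Col3a1 was the most abundant of the 6 in AMLN-fed TSP1F/F mice, at a mean of 96.2 CPM (SD 42.4), and Sparc in the other 3 groups. Their sum was 178, 160, 272 and 278 CPM in AMLN-fed TSP1F/F mice and 121, 105, 172 and 77.9 CPM in AMLN-fed TSP1ΔPf4 mice. The median log2 fold change of the 6 between genotypes on AMLN was -0.42, beside -0.38 over all genes tested. Col3a1 was the 1 of the 6 called as lower in TSP1ΔPf4 mice. For the diet, 14 of the 22 have a row in TSP1F/F mice, all with a higher mean on AMLN, and of 13 tested 3 were called (Col3a1, Col1a2 and Timp1), against 5 with DESeq2. Timp1 passed the filter only through the AMLN mice and its call is not read for this list, which leaves Col3a1 and Col1a2. The sum of the 6 was 51.5, 82.6, 63.9 and 42.7 CPM in LF-fed TSP1F/F mice. In TSP1ΔPf4 mice 8 have a row, all with a higher mean on AMLN, and 0 were called by edgeR and 6 by DESeq2. The part of stellate cells in the Sparc and Timp1 results was not tested.

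**Figure D4:**
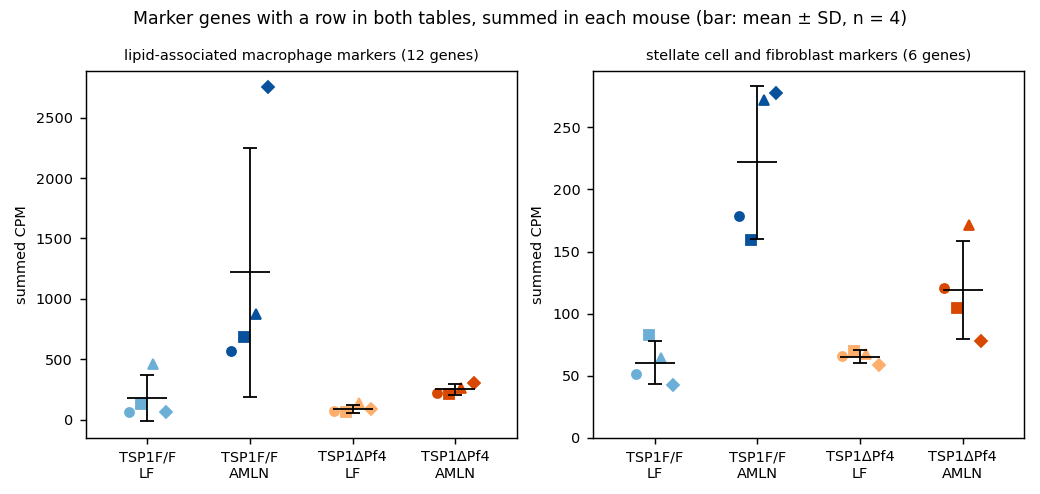
Summed CPM (vertical axes) of 12 lipid-associated macrophage markers and 6 stellate cell and fibroblast markers with a row in both tables, 1 symbol shape for each replicate number, with bars for the mean and SD. AMLN replicate 4 of the TSP1F/F genotype is highest in both panels.

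Other genes of the same pathways were read from lists that include members, apart from the thrombospondin list, which leaves out Thbs1. Of 47 alpha granule and platelet released proteins, 17 have a row in TSP1F/F mice and 3 were called, all higher on AMLN (Orm3, Timp1 and Cd63), with the limit on Timp1 given above, against 8 with DESeq2. Orm3, an acute phase protein also made by hepatocytes, was at a mean of 1.79 CPM (SD 0.816) on LF and 20.7 CPM (SD 9.73) on AMLN. In TSP1ΔPf4 mice 12 have a row, 9 with a higher and 3 with a lower mean on AMLN. Cd36 and Orm3 were the 2 called by edgeR, and DESeq2 called 9, with Apoa1, lower on AMLN, among them. Cd36, a receptor for thrombospondin 1 and a fatty acid transporter, was at 140.7 CPM (SD 12.1) on LF and 308 CPM (SD 41.5) on AMLN in these mice. In TSP1F/F mice Cd36 was at 167.9 CPM (SD 93.7) on LF and 292.6 CPM (SD 65.85) on AMLN, and was not called by edgeR. Between genotypes on AMLN it was not called.

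Of 69 platelet activation signalling genes, 25 have a row in TSP1F/F mice, all with a higher mean on AMLN, and 3 were called (Plek, Rac2 and Syk). Rac2, a GTPase of blood cells, was at 1.11 CPM (SD 0.524) on LF and 8.69 CPM (SD 2.83) on AMLN. Syk, the kinase downstream of CLEC-2, was at 1.29 CPM (SD 0.372) on LF and 8.64 CPM (SD 5.19) on AMLN. In TSP1ΔPf4 mice 24 have a row, 20 with a higher mean on AMLN. By edgeR 0 were called, with 22 at an unadjusted p under 0.05 and 20 called by DESeq2. Of all genes in these mice, 2649 of 3089 tested had an unadjusted p under 0.05. DESeq2 called 1115 higher and 388 lower of 3399. Over all rows, the mean was higher on AMLN for 67.5% of the TSP1F/F table and 44.2% of the TSP1ΔPf4 table.

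Of 25 genes of the thrombospondin family and its receptors, not counting Thbs1, 11 have a row in TSP1F/F mice and 1 was called, Sirpa. Its mean was 8.75 CPM (SD 4.46) on LF and 47.4 CPM (SD 17.5) on AMLN. DESeq2 called 2, Sirpa and Sdc1, and Sdc1 was lower on AMLN (259 CPM on LF and 165 CPM on AMLN). Thbs2, Thbs3, Thbs4 and Cd47 have no row there. Of 19 TIMP family members and proteases, 10 have a row and 2 were called, Timp1 and Adam8. Both had 0 counts in all LF mice and passed the filter only through the AMLN mice, so these calls are not read for the list. All 10 had a higher mean on AMLN, and the 9 tested had an unadjusted p under 0.05. DESeq2 called 7, Timp1 and Adam8 among them. In TSP1ΔPf4 mice 3 have a row and 1 was called, against 2 with DESeq2. Of 11 tetraspanins, 4 have a row and Cd63 was the 1 called, and 2 have a row in TSP1ΔPf4 mice. Liver identity was checked by hepatocyte markers, of which 5 of 14 have a row in TSP1F/F mice. All 5 had a lower mean on AMLN, with 0 called by edgeR, 5 at an unadjusted p under 0.05 and 5 called by DESeq2. In TSP1ΔPf4 mice 6 of 7 had a lower mean on AMLN, with 1 called by edgeR (G6pc) and 3 by DESeq2. The part of this change in the levels of the members was not tested. Ttr was the most abundant of the 5, at a mean of 5506 CPM (SD 978) on LF and 3247 CPM (SD 1041) on AMLN, and Alb has no row in either table.

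Markers of further cell types were read the same way. Of 15 T cell and natural killer cell markers, 4 have a row in TSP1F/F mice, at low levels. Cd8a was at 0.0138 CPM (SD 0.0276) on LF, with 0 counts in 3 of 4 mice, and at 1.63 CPM (SD 1.12) on AMLN. It was called as higher on AMLN, but it passed the filter on low counts only through the AMLN mice and the other 3 markers were not tested, so the call is not read for T cells as a whole. Of 14 endothelial markers, 3 have a row in TSP1F/F mice and 5 in TSP1ΔPf4 mice. Of 14 neutrophil markers, 5 have a row in TSP1F/F mice and 0 in TSP1ΔPf4 mice. By edgeR 0 endothelial and 0 neutrophil markers were called in TSP1F/F mice, where 3 of each had an unadjusted p under 0.05 and DESeq2 called 0. For endothelial markers in TSP1ΔPf4 mice edgeR called 0, with 5 at an unadjusted p under 0.05, and DESeq2 called 3. Of 8 red blood cell genes, 2 have a row in TSP1F/F mice, with Hba-a1 at 49.7 CPM (SD 44.3) on LF and 183 CPM (SD 153) on AMLN and Hba-a2 at 1.40 CPM (SD 0.453) and 6.34 CPM (SD 3.86). In TSP1ΔPf4 mice Hba-a2, the 1 with a row, was at 6.13 CPM (SD 7.55) on LF and 2.38 CPM (SD 1.20) on AMLN. By edgeR 0 of these were called. In TSP1F/F mice both had an unadjusted p under 0.05 and DESeq2 called 1, and in TSP1ΔPf4 mice DESeq2 called 0. The part of these cells in the results was not tested.

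Members were then compared from mouse to mouse, after the mean of each group was removed from log2(CPM + 0.5), since the diet groups stand apart. Over the 8 TSP1F/F mice, 27 of 36 pairs had a positive r and 9 a negative r, with a median r of 0.328. Timp1 has 0 counts on LF, so its 8 pairs rest on the 4 AMLN mice and are not read. In the other 28 pairs 20 were positive and 8 negative, with a median r of 0.317. Between these 8 members and 1978 other genes, 57.1% of pairs were positive, with a median r of 0.107, and the members were not tested against that background. None of 37 pairs computed passed the adjustment, and 2 had an unadjusted p under 0.05. Cd63 and Sparc followed each other most closely (r = 0.858, exact permutation p = 0.026, adjusted p = 0.482; rho = 0.857, exact permutation p = 0.0174, adjusted p = 0.642). Without the 2 mice farthest from the median of Cd63, r was 0.926 (exact permutation p = 0.0278). Of 1985 other genes, 118 had a higher r with Cd63 than Sparc had.

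Thbs1 and Sparc had r = 0.742 (exact permutation p = 0.0243, adjusted p = 0.482) and rho = 0.619 (exact permutation p = 0.0347, adjusted p = 0.642), and r was 0.689 (exact permutation p = 0.0833) without the 2 farthest mice. Thbs1 and Pf4, which like Sparc encode granule proteins, had r = 0.412 (exact permutation p = 0.241, adjusted p = 0.638) and rho = 0.405 (exact permutation p = 0.309, adjusted p = 0.676), and r was 0.621 without the 2 farthest mice. Of 1985 other genes, 570 had a higher r with Thbs1 than Pf4 had, and 108 a higher r than Sparc had. The lowest r was -0.587, between Pf4 and Pik3r5 (exact permutation p = 0.193, adjusted p = 0.637; rho = -0.452, exact permutation p = 0.347, adjusted p = 0.676), and it was -0.075 without the 2 farthest mice, so that relation rests on them. Over all 16 mice, Sparc and Plek had r = 0.054 (permutation p = 0.827, adjusted p = 0.875) and rho = 0.088 (permutation p = 0.75, adjusted p = 0.934), and r was 0.158 without the 2 farthest mice. Its sign changed when the scaling, the pseudocount or a mouse was changed. Over the 8 AMLN-fed mice of both genotypes r was 0.724 (exact permutation p = 0.132), so the relation differs with the mice used.

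**Figure D5:**
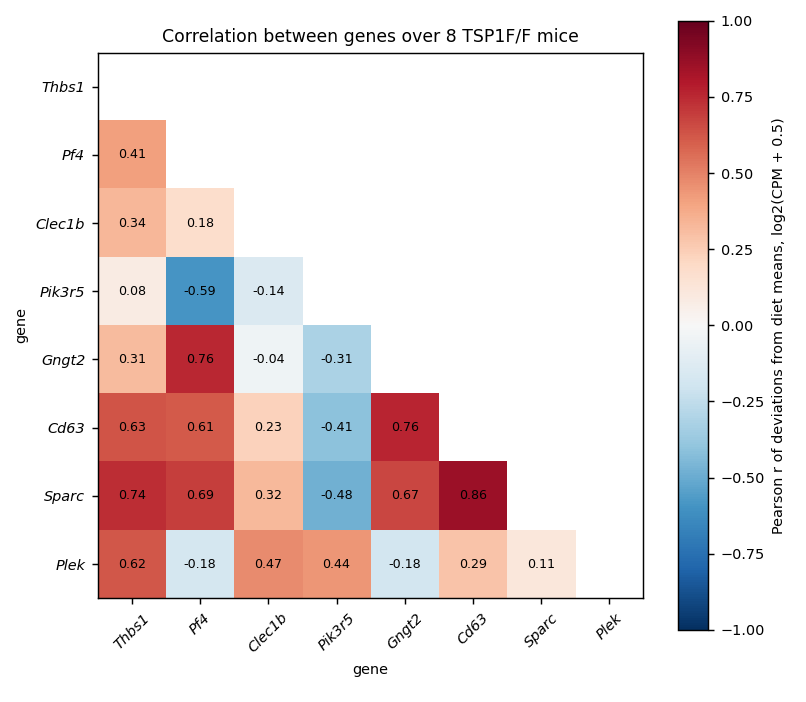
Pearson r between members (both axes are genes) over 8 TSP1F/F mice, from deviations of log2(CPM + 0.5) from the diet means, with red for positive and blue for negative values. The pair Cd63 and Sparc has the highest r and the pair Pf4 and Pik3r5 the lowest, and Timp1 is left out.

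Genes most like a member were sought among 1986 genes of the TSP1F/F table with a mean of at least 1 CPM. The mean of each diet group was again removed first, so r describes likeness within the diet groups and not the diet response. The patterns most like that of Thbs1 over the 8 mice were those of Ubd (r = 0.964), Btg2 (r = 0.961) and Jun (r = 0.956). Btg2 and Jun are immediate early genes. Btg2 was at 5.48, 23.4, 6.51 and 6.60 CPM on LF and at 16.1, 15.7, 82.5 and 70.9 CPM on AMLN, so it was highest in the same AMLN mice as Thbs1 and in the same LF mouse, replicate 2. For Pf4 they were Lyrm4 (r = 0.954), Cd36 (r = 0.954) and Gm8883 (r = 0.947). For Clec1b they were Hey1 (r = 0.950), 4930459C07Rik (r = 0.921) and Trem2 (r = 0.914). These values are the highest of many and carry no test.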

How the data were processed

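Liver RNA of 16 mice was used, grouped by the sample labels. Paired reads from a NovaSeq instrument were aligned to mm10, with STAR per the methods of the paper and with HISAT2 per the submitters' notes, which also name DESeq2. The program that counted reads, the annotation and the strand setting are not given in the sources used here. Each deposited count is a whole number of reads per gene. Each deposited signal value is that count over a size factor of its library. The FPKM values of the authors also divide by gene length. Each deposited p-value comes from the authors' own diet comparison and was read only to learn how the tables were selected and how many genes were adjusted over, 16784 in TSP1F/F and 13927 in TSP1ΔPf4. All 48 columns of single mice were matched to a mouse, and no group held identical libraries.

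Library totals were recovered from count, gene length and FPKM. After filterByExpr, edgeR 4.0.16 (R 4.3.3, prior count 0.125) tested each gene. Diet tests were adjusted over the numbers above, and genotype tests and the difference of diet responses over the genes tested among the 752 in both tables. SE is the log2 fold change over the root of F. Because the tables hold selected genes, dispersions come from those alone, and every p shares that limit. Correlations used 576 arrangements within groups for 8 mice, where the smallest possible p is 0.00174, and 100000 resamples for 16, two-sided, adjusted over 37 pairs. The code was tested on simulated data. Alternatives were DESeq2 1.42.0, TMM, no filter, a replicate block, other adjustments, pseudocounts and scalings, 1 fit for all mice, and each mouse left out. Named genes are the 9 members, up to 4 abundant and any called genes of each of 15 lists, of which the text gives examples, and the 3 genes most like Thbs1, Pf4 and Clec1b. The members and lists were chosen with earlier results of these data known. The pairs of genes named, the 3 motifs, the promoters printed, the marker sums over both tables, Btg2 as an example, Marco and Cd163 as the lower Kupffer markers, the groups through which genes passed the filter, the shares over all rows and other genes and the pairs without Timp1 were chosen after the values were seen.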

Additional observations from a re-analysis of the deposited data

Results flagged for a closer look

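Of 21 sets of 4 mice in which a member had differing values, 0 held a mouse far from the others by the gap between the most extreme value and the next, set against the range. Chance would mark about 1 in 20 such sets. The difference of diet responses between the genotypes was not called for Plek or Sparc by edgeR.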

How the results depend on the processing

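In TSP1F/F mice 3 members were called for the diet, with the limit on Timp1 given above. DESeq2 called 6, among them Thbs1, beside 339 genes called higher and 508 lower of 2558. Adjustment over the tested genes alone called 9, beside 807 genes called higher and 317 lower of 2096. These rows appear selected on the same contrast. The replicate block called 0, and fits with a mouse left out called 0 to 3. TMM, no filter and no threshold on fold change gave 3. In TSP1ΔPf4 mice the count was 0, against 2 with DESeq2 and 1 with adjustment over tested genes alone. Over all genes, DESeq2 called 1115 higher and 388 lower of 3399 there. That adjustment called 825 higher and 1362 lower of 3089. Between genotypes on AMLN it was 1, against 0 with TMM and 0 to 1 with a mouse left out. Between genotypes on LF and for the difference of diet responses it was 0 by edgeR and by DESeq2. The larger counts with the other adjustment follow from fewer genes adjusted over, and for the rest the cause was not tested. Mice of the same number deviated with r from -0.472 to 0.289 across the diets and from -0.052 to 0.481 across the genotypes, where all 4 pairs on AMLN were positive (0.093 to 0.397). With the block Plek was at -1.47 between genotypes on AMLN and was called.

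On LF the log2 fold change of Sparc between genotypes changed sign to -0.094 without TSP1F/F LF replicate 1, -0.073 without TSP1F/F LF replicate 4 and -0.014 without TSP1ΔPf4 LF replicate 3 (range -0.094 to 0.20), and that of Plek to -0.13 without TSP1ΔPf4 LF replicate 3 (range -0.13 to 0.45). The r of Sparc and Plek over 16 mice was -0.001 with a pseudocount of 0.1, -0.012 with size factors, -0.100 to 0.176 with a mouse left out and 0.724 over the 8 AMLN-fed mice. Of 37 pairs, 15 changed sign under at least 1 setting, and 0 passed the adjustment under any. Pairs of TSP1F/F mice on AMLN alone were not run, since 4 mice are too few. Low counts limit Pf4, Thbs1 and Pik3r5 on LF.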
